A study of Arabidopsis thaliana with 12 samples.

Results

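Cytosolic ribosomal proteins are the protein part of the ribosomes that translate nuclear-encoded messages. Each such ribosome has a large (60S) and a small (40S) subunit, and in Arabidopsis most of their proteins are encoded by several paralogous genes whose transcripts can be set apart by a probe set. In plants the making of ribosomes is a large cost, and it is known to follow the supply of sugar through the TOR kinase pathway. Of 60 genes listed for these proteins, 32 had a probe set that the platform annotation pairs with that gene alone, and these 32 genes are described here. A further 4 genes share a probe set with other genes, and 24 are not listed in the annotation table used, among them the genes of RPS6, RPL5, RPL10 and RPL24. The 32 probe sets stand among 22746 that are not Affymetrix controls. They cover 17 protein families, 19 genes of the 60S and 13 of the 40S subunit, and 11 families through 2 or more paralogs. Family names follow the usual Arabidopsis nomenclature and were not in the annotation table, so every gene is given with its locus.

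RNA came from whole wild-type Columbia seedlings raised for 3 days at 21 °C in liquid MS medium, after 3 days of cold and 6 hours of light in plates otherwise kept dark with foil. Each of 4 treatments had 3 biological replicates and each replicate 1 array, which made 12 arrays. The seedlings received 10 mM sucrose with 0.2 µM sulfamethoxazole (SMX), 10 mM sucrose alone, 0.2 µM SMX alone, or no addition (control). SMX is a sulfonamide that blocks dihydropteroate synthase and with it folate synthesis. Each probe set has 1 expression value an array, on a log2 scale. Levels of different probe sets cannot be set against each other, so paralogs are compared by their changes. A change counts as called where limma, fitted to all 12 arrays, gave it a p under 0.05 after Benjamini-Hochberg adjustment over the 22746 probe sets.

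Array medians lay between 5.63 and 5.84. Labelling of the RNA differed with sucrose. The log2 difference between the 3′ and 5′ probe sets of added Bacillus transcripts (the spike score; a higher score means relatively less 5′ signal) was 0.72 to 1.44 on the sucrose plus SMX arrays and 0.777 to 1.58 on the sucrose arrays, against 4.24 to 7.45 on the SMX arrays and 3.95 to 6.31 on the control arrays. The 2 ranges did not overlap, and the same held for the actin probe sets of the seedlings' own RNA. Of 27 marker genes listed for a check of the whole-seedling label, 4 had a probe set of their own. The root hair expansin EXPA7 averaged 7.48 with sucrose plus SMX, 6.30 with sucrose, 3.25 with SMX and 3.54 in control, and EXPA18 averaged 9.46, 8.28, 5.15 and 4.32 in the same groups. Both averages were higher in the sucrose groups, and the part of cell makeup in the changes given here was not tested. The oil-body gene OLEO3 lay between 8.54 and 9.37, and the guard cell regulator FAMA stayed between 2.12 and 3.39, at or near the floor of the values. Shoot, vascular and dividing-cell markers could not be checked.

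The first question was how sucrose changed these transcripts, once without and once with SMX. Sucrose alone raised 9 of the 32 probe sets over control and lowered 1. With SMX in the medium it raised 13 and lowered 1. All 10 genes called without SMX were called in the same direction with SMX, and 4 more passed only there. The 2 comparisons share no array, but they come from 1 fit and share each gene's error estimate, so their calls are not independent. The share of all probe sets called in both is not given here. Over all probe sets, 11.9% were called up and 11.6% down without SMX, and 16.2% were called up and 16.2% down with it. Many probe sets sit at the floor, and in a fit of the 10973 with a mean above 6 the shares without SMX were 22.8% up and 22.8% down, beside 10 up and 1 down of the 31 members in that fit. There the shares with SMX were 28.6% up and 27.8% down, beside 12 up and 1 down. The median change of the 32 was 0.17 without SMX and 0.28 with it, where the median over all probe sets was 0 in both. The first of these medians was 0.057 under quantile normalization and 0.056 under median centring of the arrays, and the second was 0.14 and 0.23. Single genes ran from −0.57 to 1.98 without SMX and from −0.55 to 2.71 with it. All 6 sucrose arrays were above all 6 others for 11 members and below them for 1, beside 12.8% and 12.4% of all probe sets. For this count the shares among probe sets with a mean above 6, where 31 of the members lie, are not given here. In whole seedlings, a change in the share of cells that use a gene and a change within cells cannot be told apart.

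The count for sucrose alone was 10, and it fell to 6 without control replicate 2 or without control replicate 3, to 5 without sucrose replicate 2 and to 4 without sucrose replicate 3. No gene was called when only the 6 sucrose and control arrays were fitted, nor in either comparison when the spike or the actin score entered the model. The shares of all probe sets called in these fits are not given here. A loss of calls particular to these genes thus cannot be told apart from a general one.

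**Figure D1:**
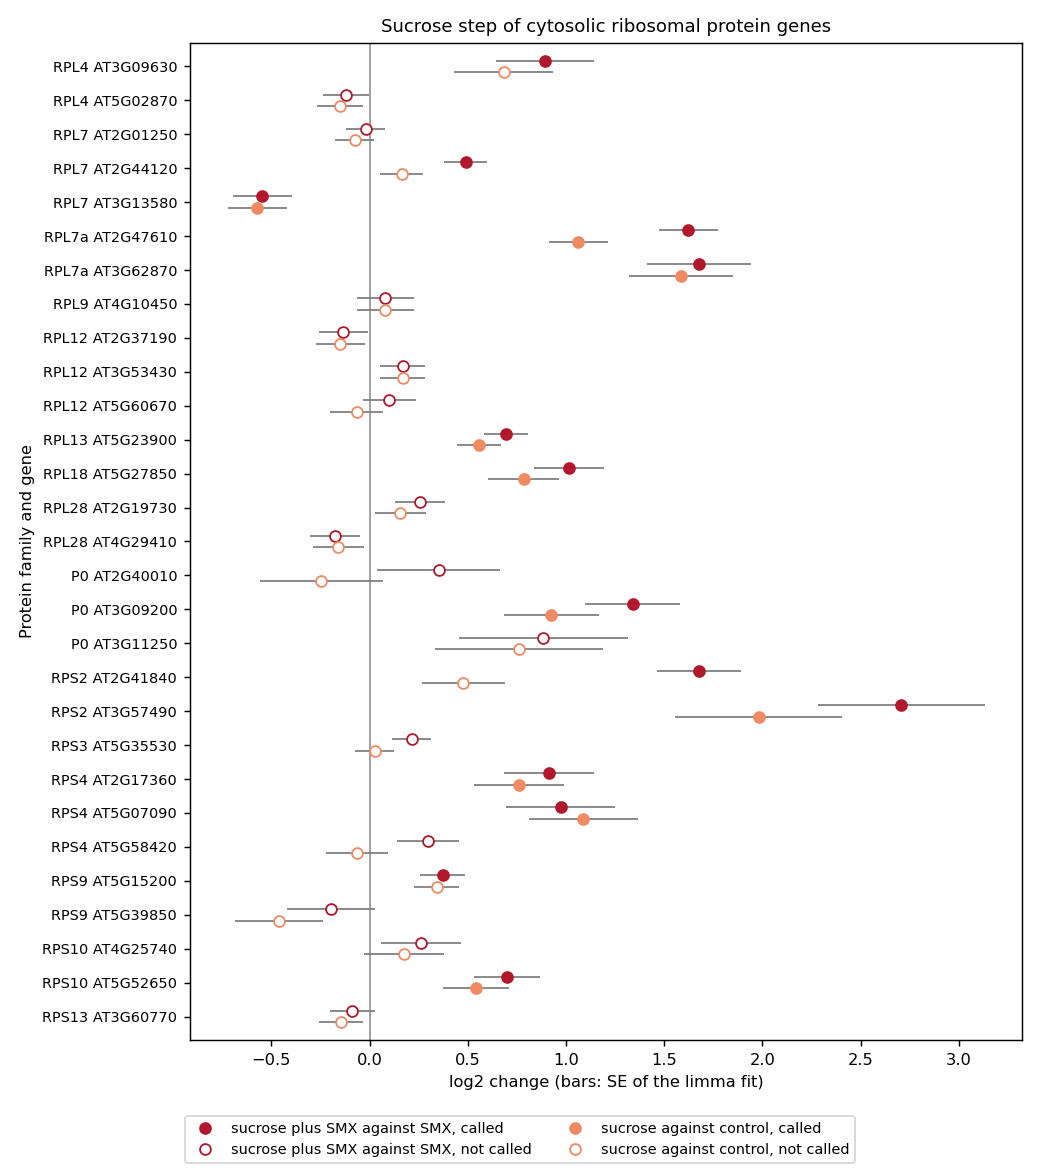
Log2 change with sucrose for 29 of the 31 probe sets above the floor, grouped by protein family, with sucrose plus SMX against SMX (dark, upper of each pair) and sucrose against control (light, lower). Bars are SEs of the limma fit and filled points passed the test; 9 genes are filled to the right and 1 to the left without SMX, and 13 and 1 with it.

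Among the 60S proteins, both genes of RPL7a, which binds the large subunit's rRNA, rose in both comparisons. AT3G62870 read 13.60, 14.01 and 14.34 with sucrose, against 13.01, 12.06 and 12.12 in control. With SMX present it read 14.20, 13.91 and 14.06 with sucrose, against 12.52, 12.27 and 12.36 without. All 6 sucrose arrays lay above all 6 others. Without SMX it changed by 1.59 (SE 0.265, adjusted p = 0.00424) and with SMX by 1.68 (SE 0.265, adjusted p = 0.00182), or 3-fold and 3.2-fold. AT2G47610 read 12.66, 12.97 and 13.13 with sucrose and 12.18, 11.67 and 11.72 in control, and 13.06, 13.08 and 13.06 with sucrose plus SMX and 11.46, 11.35 and 11.53 with SMX alone. Its arrays again fell into separate ranges, with changes of 1.06 (SE 0.15, adjusted p = 0.00217) and 1.62 (SE 0.15, adjusted p = 0.000193).

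P0 is the scaffold of the ribosomal stalk, the arm of the 60S subunit that recruits elongation factors, and 1 of its 3 genes was called. AT3G09200 read 13.44, 13.58 and 13.71 with sucrose and 12.99, 12.91 and 12.05 in control. With SMX it read 13.91, 14.05 and 13.66 with sucrose and 12.76, 12.47 and 12.37 without, so the sucrose arrays were the higher ones at both SMX levels. Without SMX the change was 0.92 (SE 0.241, adjusted p = 0.0252) and with SMX it was 1.34 (SE 0.241, adjusted p = 0.00329); leaving out the second or the third sucrose array ended the first of these calls (adjusted p 0.0727 to 0.0844). AT3G11250 changed by 0.76 (SE 0.429, adjusted p = 0.255) and 0.88 (SE 0.429, adjusted p = 0.159), with control values of 8.47, 8.24 and 6.77 spread wider than the change. The second change became a call without control replicate 3 (adjusted p = 0.0266). AT2G40010 read 6.75, 7.38 and 7.38 with sucrose and 7.89, 7.63 and 6.73 in control, which overlapped, and 7.36, 7.66 and 7.27 with sucrose plus SMX and 6.77, 7.35 and 7.11 with SMX alone. It was called in neither comparison (−0.25, SE 0.313, and 0.35, SE 0.313). RPL12 sits beside P0 at the base of the stalk, and none of its 3 genes was called: the changes of AT2G37190, AT3G53430 and AT5G60670 lay between −0.15 and 0.17 in both comparisons.

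RPL7, another 60S protein, was the family with calls in both directions. AT3G13580 was the only member called down. It read 10.29, 10.63 and 10.49 with sucrose, against 10.87, 11.14 and 11.11 in control, and 10.24, 10.62 and 10.64 with sucrose plus SMX, against 10.81, 11.21 and 11.12 with SMX alone. Every sucrose array was below every array without sucrose, and it fell by 0.57 (SE 0.15, adjusted p = 0.0262) without SMX and by 0.55 (SE 0.15, adjusted p = 0.0229) with SMX. The first call ended without control replicate 2 or 3 or without sucrose replicate 1 or 3 (adjusted p 0.0702 to 0.0848). The second ended without SMX replicate 2 or 3 or without sucrose plus SMX replicate 1 (0.0688 to 0.0787). AT2G44120 read 12.36, 12.14 and 12.58 with sucrose plus SMX, against 11.82, 12.02 and 11.77 with SMX alone, a rise of 0.49 (SE 0.11, adjusted p = 0.00914). Without SMX its values, 12.27, 12.25 and 12.32 with sucrose and 12.01, 12.16 and 12.18 in control, did not overlap either, but the change of 0.16 (SE 0.11, adjusted p = 0.353) did not pass. AT2G01250 changed by −0.075 (SE 0.0998) and −0.02 (SE 0.0998) and passed in neither.

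RPL4 lines the tunnel through which the new peptide leaves. Its gene AT3G09630 read 12.63, 12.47 and 12.83 with sucrose plus SMX, against 11.52, 11.93 and 11.79 with SMX alone, and rose by 0.89 (SE 0.251, adjusted p = 0.0245). That call ended without SMX replicate 1 or 3 or sucrose plus SMX replicate 1 or 3 (adjusted p 0.0556 to 0.0816). For sucrose alone the change was 0.68 (SE 0.251, adjusted p = 0.0847), not called over all probe sets but called without control replicate 1 (adjusted p = 0.0491), without sucrose replicate 1 (0.0307) and among probe sets with a mean above 4 (0.0413) or 6 (0.0358). The paralog AT5G02870 changed by −0.15 (SE 0.117) and −0.12 (SE 0.117), in neither case past the test. RPL13 and RPL18 were each measured through 1 gene, and both rose. The RPL18 gene AT5G27850 read 13.46, 13.72 and 13.70 with sucrose and 13.29, 12.61 and 12.63 in control, with changes of 0.78 (SE 0.18, adjusted p = 0.0152) and 1.02 (SE 0.18, adjusted p = 0.00307). Its call without SMX ended without control replicate 2 or 3 or sucrose replicate 2 or 3 (adjusted p 0.0549 to 0.0564). The RPL13 gene AT5G23900 read 11.49, 11.57 and 11.68 with sucrose and 11.25, 10.90 and 10.94 in control, and rose by 0.56 (SE 0.112, adjusted p = 0.00917) and 0.70 (SE 0.112, adjusted p = 0.00202).

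The remaining 60S genes passed in neither comparison. RPL28 changed by 0.16 and 0.26 for AT2G19730 and by −0.16 and −0.18 for AT4G29410, without and with SMX. The RPL9 gene AT4G10450 changed by 0.08 in one comparison and 0.079 in the other (SE 0.145 and 0.145). The RPL8 gene AT3G51190, for a protein next to the peptide-bond-forming centre, lay at the floor of 2.12 on all 12 arrays, so no response could be measured for it.

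In the 40S subunit, RPS2, RPS3 and RPS9 line the channel where the message enters. On the values as deposited, the largest change of all members was that of the RPS2 gene AT3G57490. It read 9.07, 9.47 and 9.84 with sucrose, against 8.53, 6.90 and 7.01 in control, and 9.77, 9.70 and 9.66 with sucrose plus SMX, against 7.23, 6.50 and 7.28 with SMX alone. All sucrose arrays were above all others, with control replicate 1 the nearest of those without sucrose. It rose by 1.98 (SE 0.425, adjusted p = 0.0117) without SMX and by 2.71 (SE 0.425, adjusted p = 0.00176) with SMX, 3.95-fold and 6.53-fold. With the spike score in the model these changes were 0.50 (SE 0.624) and 0.98 (SE 0.705), with the actin score 0.25 and 0.57, and the gene was then not the one that changed most in either comparison. The other RPS2 gene, AT2G41840, read 13.37, 13.30 and 13.59 with sucrose plus SMX, against 12.10, 11.26 and 11.89 with SMX alone, a rise of 1.68 (SE 0.213, adjusted p = 0.000705). Without SMX it read 13.07, 13.38 and 13.47 with sucrose and 13.01, 12.65 and 12.82 in control, which did not overlap and differed by 0.48 (SE 0.213, adjusted p = 0.147), not a call; this became a call without SMX replicate 2 (adjusted p = 0.0469).

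The RPS9 gene AT5G15200 read 14.01, 13.85 and 14.02 with sucrose plus SMX, against 13.57, 13.61 and 13.59 with SMX alone, and rose there by 0.37 (SE 0.115, adjusted p = 0.0368). That call ended without any 1 of the 3 SMX arrays or without sucrose plus SMX replicate 1 or 3 (adjusted p 0.0805 to 0.106). It also ended under quantile normalization, median centring and filters on low values. Without SMX its change was 0.34 (SE 0.115, adjusted p = 0.0639). The paralog AT5G39850 changed by −0.46 (SE 0.225) and −0.20 (SE 0.225), and the RPS3 gene AT5G35530 by 0.026 (SE 0.0998) and 0.22 (SE 0.0998). None of the changes of AT5G39850 and AT5G35530 passed.

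RPS4 was measured through 3 genes, of which 2 were called up. AT5G07090 read 11.92, 12.39 and 12.26 with sucrose, against 11.55, 11.29 and 10.48 in control, and 12.32, 11.76 and 12.24 with sucrose plus SMX, against 10.94, 11.17 and 11.30 with SMX alone. AT2G17360 read 11.01, 11.34 and 11.38 with sucrose, against 10.89, 9.90 and 10.66 in control. With SMX it read 11.27, 10.98 and 11.26 with sucrose, against 10.22, 10.23 and 10.31 without. For both, the 6 sucrose arrays were above the 6 others. AT5G07090 changed by 1.09 (SE 0.278, adjusted p = 0.0234) and 0.97 (SE 0.278, adjusted p = 0.0266). Its first call ended without sucrose replicate 2 or 3 (adjusted p 0.0739 to 0.0832), and its second without SMX replicate 1 or 2 or sucrose plus SMX replicate 1 or 3 (0.0631 to 0.0882). AT2G17360 changed by 0.76 (SE 0.228, adjusted p = 0.0428) and 0.91 (SE 0.228, adjusted p = 0.0149). Its first call was kept only without control replicate 1 or sucrose replicate 1, and ended without any other single array (adjusted p 0.0551 to 0.129) and under quantile normalization or median centring. The paralog AT5G58420 changed by −0.062 (SE 0.158) and 0.30 (SE 0.158) and was not called.

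Of the 2 measured genes of RPS10, a protein of the 40S head, AT5G52650 rose by 0.54 (SE 0.168, adjusted p = 0.0469) and 0.70 (SE 0.168, adjusted p = 0.0123). It read 12.34, 12.36 and 12.51 with sucrose, against 12.21, 11.87 and 11.50 in control, with no overlap. Its call without SMX was kept only when control replicate 1 was the array left out, and ended without any other single array (adjusted p 0.051 to 0.14) and under quantile normalization. Its paralog AT4G25740 overlapped between the groups and was not called (0.17 and 0.26). The RPS13 gene AT3G60770 (−0.15 and −0.088) passed in neither comparison. By subunit, 5 of 19 genes of the 60S were called up and 1 down with sucrose alone, and 4 of 13 genes of the 40S were called up. With SMX the counts were 7 up and 1 down, and 6 up.

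**Figure D2:**
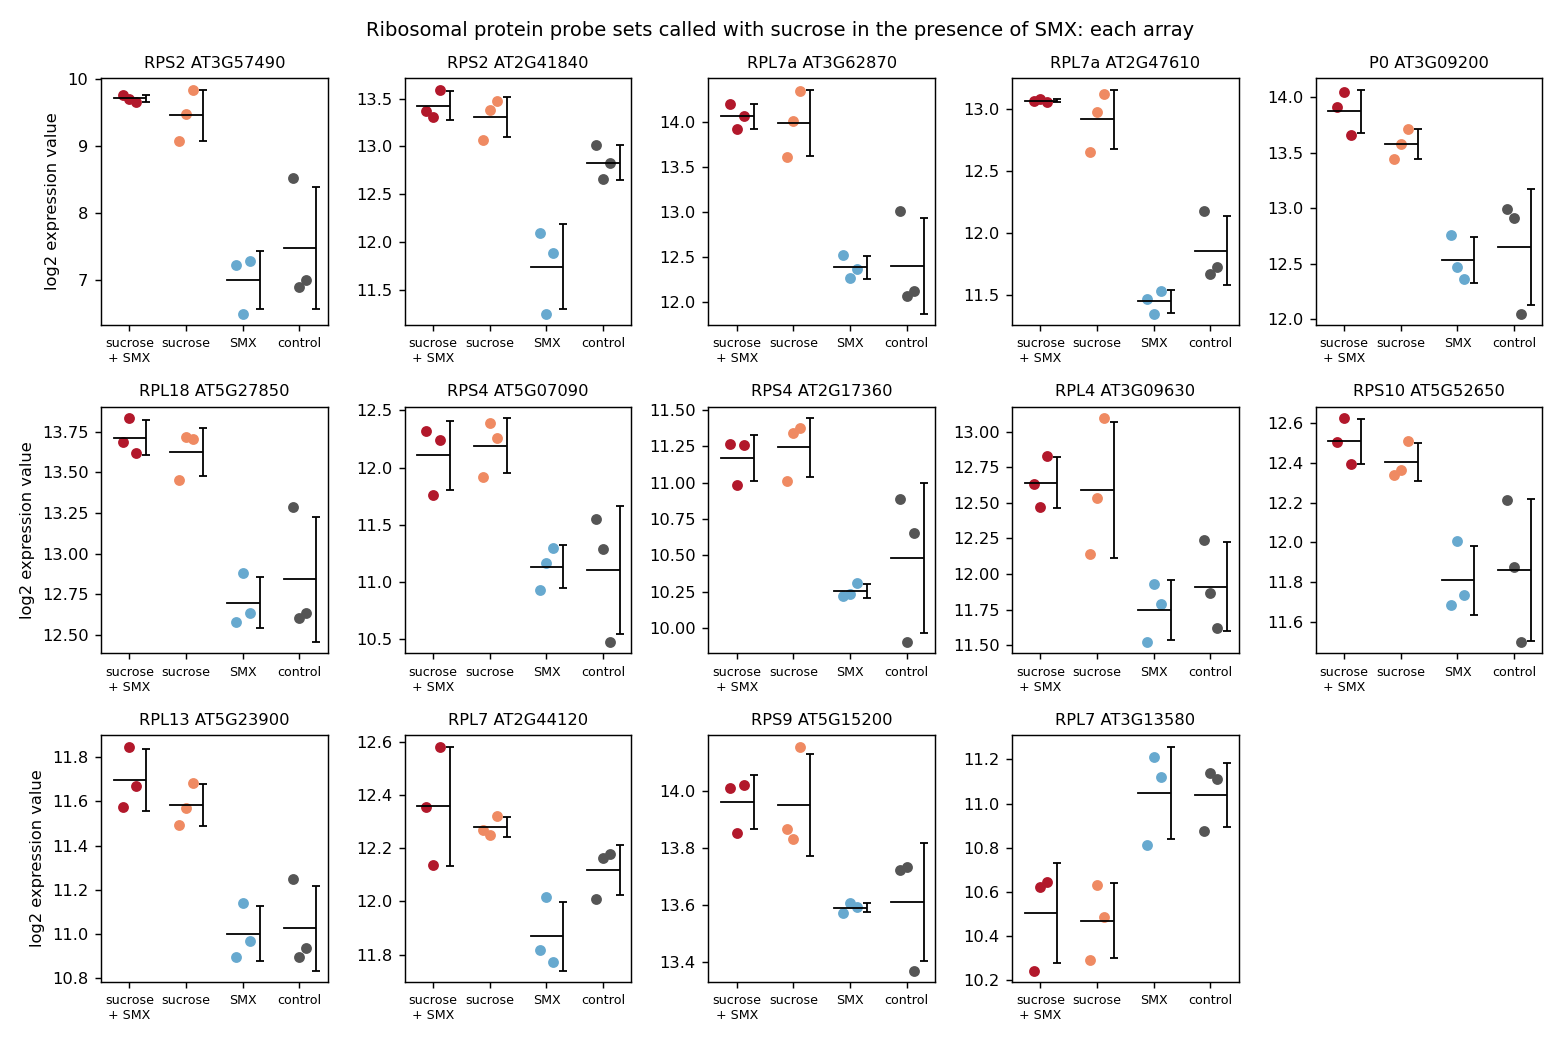
Log2 expression value on each array for the 14 genes called for sucrose plus SMX against SMX alone, with 3 arrays a group, the mean as a line and the SD as a bar; each panel has its own axis. In 12 panels all 6 sucrose arrays lie on one side of the 6 others; the RPL4 gene AT3G09630 and the RPL7 gene AT2G44120 are the 2 whose arrays overlap.

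The raised genes and the labelling of the RNA both differed between the arrays with and without sucrose. All 9 genes called up with sucrose alone read higher in control replicate 1 than on any other array without sucrose. Of all 31 members above the floor, 14 did so, and the share over all probe sets is not given here. Control replicate 1 also had the lowest spike score (3.95) and the lowest actin score (3.49) of the 6 arrays without sucrose. The mean of the 9 was 12.11 to 12.51 on the sucrose arrays and 11.77, 11.12 and 11.01 on the control arrays. It was 12.40 to 12.48 on the sucrose plus SMX arrays, against 11.14, 11.11 and 11.17 on the SMX arrays, whose spike scores were 4.24, 7.45 and 6.0. SMX replicate 1, with a spike score near that of control replicate 1, had an actin score of 5.25 and a mean of 11.14. With the spike score in the model, the 10 genes called for sucrose alone kept their direction at a median size of 0.52 (median SE 0.359), beside 0.85 (median SE 0.204) without it, and none passed (lowest adjusted p of all members 0.354). For sucrose plus SMX against SMX alone the 14 called genes kept their direction at a median size of 0.73 (SE 0.393), beside 0.94 (SE 0.197), with a lowest adjusted p of 0.122. With the actin score in its place the median sizes were 0.36 (SE 0.289) for sucrose alone and 0.51 (SE 0.327) with SMX. The score and sucrose go together across these arrays, so their parts in the changes cannot be told apart. Without control replicate 1, 10 members were called up and 1 down for sucrose alone.

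**Figure D3:**
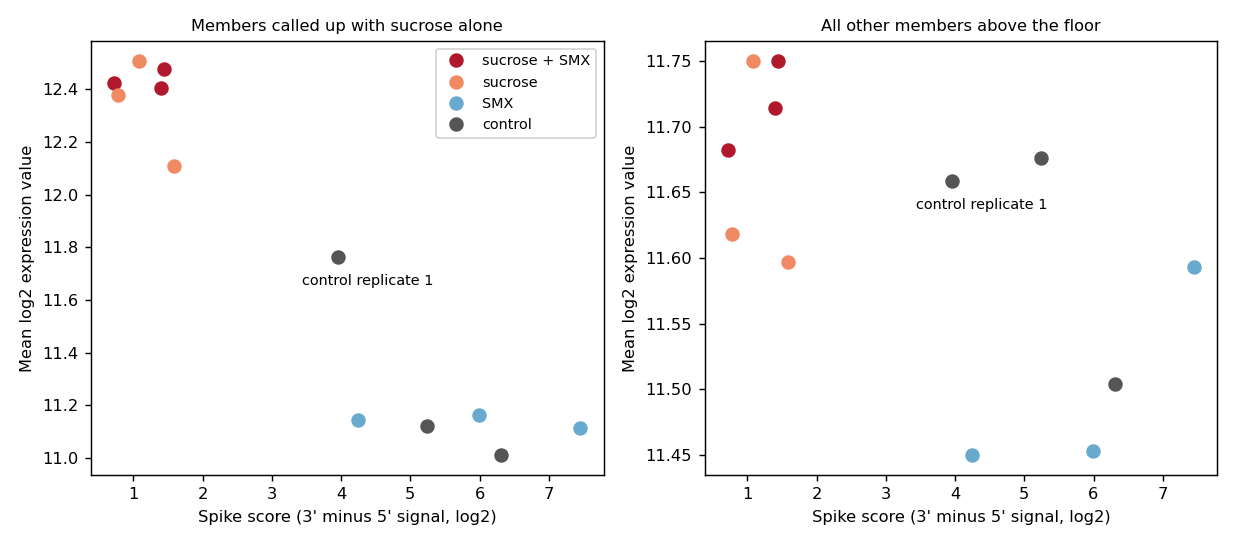
Mean log2 expression value of the 9 genes called up with sucrose alone (left) and of the other 22 members above the floor (right) on each of the 12 arrays, against the spike score of the array. The 6 sucrose arrays have scores under 2 and control replicate 1, at 3.95, lies between them and the other arrays without sucrose on the left.

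The second question was whether paralogs of 1 protein shared the sucrose response. For each of the 19 pairs of measured paralogs in 11 families, the log2 difference between both probe sets was taken on every array, and its change with sucrose was averaged over the SMX levels. An exact two-sided permutation test of the arrays within each SMX level has 400 arrangements and can give no p below 0.005. The response differed for 14 of the 19 pairs after Benjamini-Hochberg adjustment over the pairs, 9 of them at that smallest p. Pairs of a family of 3 genes share members and are not independent. In 7 pairs the difference between the paralogs did not overlap between the 6 arrays with sucrose and the 6 without.

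The widest gap in response was in RPS2, where AT3G57490 responded more than AT2G41840 without and with SMX. The value of AT2G41840 minus that of AT3G57490 was 4.0, 3.91 and 3.64 with sucrose, against 4.49, 5.75 and 5.82 in control. With SMX it was 3.61, 3.60 and 3.93 with sucrose, against 4.87, 4.75 and 4.61 without. No sucrose array reached the range of the arrays without it, and the difference in response was −1.27 (95% interval −1.78 to −0.75; exact permutation p = 0.005, 0.0106 after adjustment over the pairs). With the spike score in limma it was −0.49 (SE 0.588), and the widest gap was then that of the RPL7 genes AT2G44120 and AT3G13580, at 0.86 (SE 0.329), neither of them called. In P0, the response of AT2G40010 minus that of AT3G09200 was −1.08 (95% interval −1.43 to −0.73; exact permutation p = 0.005, 0.0106 after adjustment over the pairs). Against AT3G11250 it was −0.77 (95% interval −1.13 to −0.41; exact permutation p = 0.005, 0.0106 after adjustment over the pairs). The last 2 P0 genes, AT3G09200 and AT3G11250, differed by 0.31 (95% interval −0.11 to 0.73; exact permutation p = 0.125, 0.148 after adjustment over the pairs). That interval holds 0 as well as a difference as large as several of those that passed.

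The 3 RPL7 genes all differed from each other. AT2G44120 exceeded AT3G13580 in its response by 0.89 (95% interval 0.63 to 1.14; exact permutation p = 0.005, 0.0106 after adjustment over the pairs). The value of the first minus the second was 1.98, 1.62 and 1.84 with sucrose, against 1.14, 1.03 and 1.07 in control, and 2.11, 1.51 and 1.94 with sucrose plus SMX, against 1.0, 0.80 and 0.65 with SMX alone. The arrays with sucrose were all higher. AT2G01250 lay between them, 0.51 above AT3G13580 and −0.37 relative to AT2G44120 (exact permutation p = 0.01 and 0.005). In RPL4 the 2 genes differed by 0.92 (95% interval 0.48 to 1.37; exact permutation p = 0.01, 0.0158 after adjustment over the pairs), with AT3G09630 the higher responder. In RPS4, AT5G07090 and AT2G17360 exceeded AT5G58420 by 0.91 and 0.72 (exact permutation p = 0.005 each). The first 2 differed from each other by −0.19 (95% interval −0.71 to 0.32; exact permutation p = 0.5, 0.5 after adjustment over the pairs).

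In RPS9, AT5G15200 exceeded AT5G39850 by 0.69, and in RPS10 the response of AT4G25740 minus that of AT5G52650 was −0.40 (exact permutation p = 0.005 each). In RPL28, AT2G19730 exceeded AT4G29410 by 0.37 (exact permutation p = 0.01). The RPL12 pair AT2G37190 and AT3G53430 (−0.31) passed narrowly (exact permutation p = 0.035, 0.0475 after adjustment over the pairs), and limma did not call it (adjusted p = 0.0889). The permutation call ended without 9 of the 12 arrays taken singly. The 2 RPL7a genes, which both rose, differed by −0.29 (95% interval −0.51 to −0.071; exact permutation p = 0.055, 0.0697 after adjustment over the pairs), and limma gave the pair an adjusted p of 0.0387. By permutation it passed without SMX replicate 1 (adjusted p = 0.038) or sucrose plus SMX replicate 2 (0.0204), and the RPS4 pair AT2G17360 and AT5G07090 passed without control replicate 2 (0.038), all by the exact permutation test.

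The remaining RPL12 pairs differed by −0.16 (95% interval −0.40 to 0.087) and 0.15 (95% interval −0.15 to 0.45), and neither passed. Intervals are limma's, fitted together with all probe sets; that fit called 13 of the pairs, and 0 once the spike score was in the model. Probe sets of 2 paralogs can lie at different distances from the 3′ end, which was not known here. They can also differ in mean expression value over the 12 arrays. It was 12.8 and 8.41 for the RPS2 genes AT2G41840 and AT3G57490, and 12.2 and 13.2 for the RPL4 genes AT3G09630 and AT5G02870. The part of distance and of mean value in these differences was not tested.

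**Figure D4:**
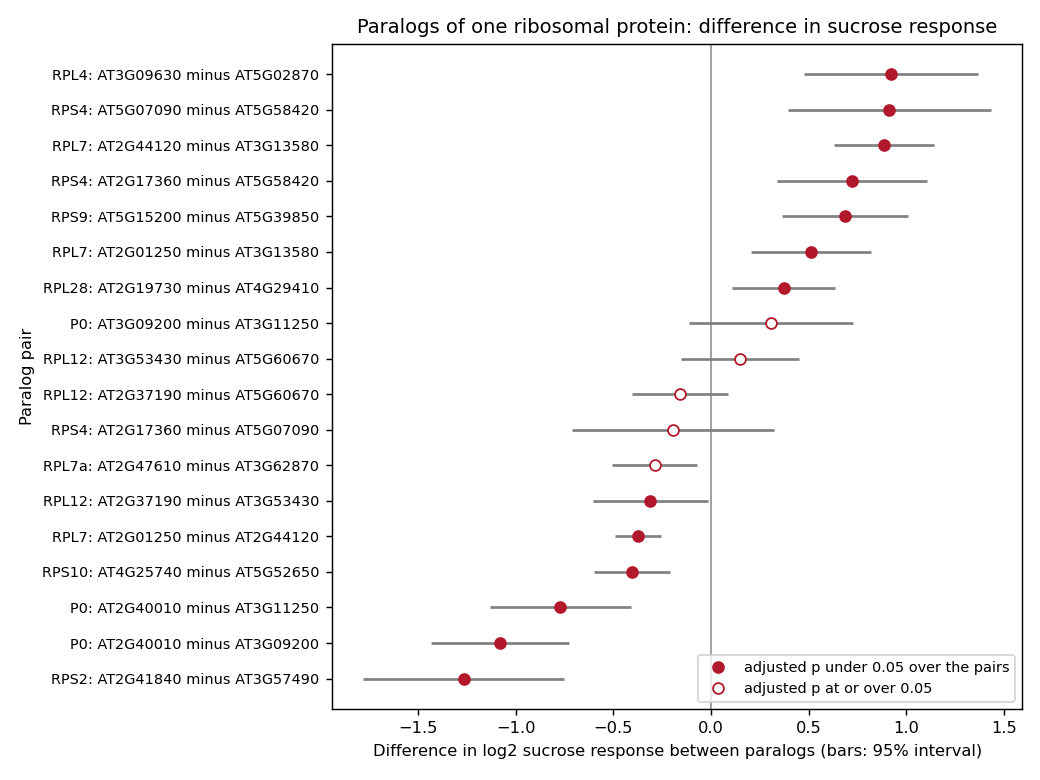
Difference in log2 sucrose response between the 2 genes of each of 18 of the 19 paralog pairs, as first locus minus second, with limma's unadjusted 95% interval as a bar. Filled points (13 pairs) passed the exact permutation test after adjustment over the pairs; RPS2 is the pair farthest to the left.

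The third question was the SMX step at each sucrose level. No member was called for SMX alone against control, for sucrose plus SMX against sucrose alone, or for the interaction, in limma with Benjamini-Hochberg adjustment. Over all probe sets, 0.0659% were called up and 0.0176% down for SMX alone, 0.119% up and 0.0703% down for SMX on top of sucrose, and 0.0352% each way for the interaction. At an unadjusted p under 0.05 the members numbered 2, 0 and 2 of 32, beside 6.64%, 5.52% and 6.12% of all probe sets. Without sucrose the median change with SMX was −0.065, with 23 genes negative and 8 positive. With sucrose it was 0.075, with 9 negative and 22 positive. The median over all probe sets was 0 in both, and over those with a mean above 6 it was −0.030 and −0.0074. Groups did not overlap for 2 members without sucrose, both lower with SMX, where 7.46% of all probe sets did not overlap in either direction. With sucrose 1 member did not overlap, higher with SMX, beside 9.7%.

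The RPS2 gene AT2G41840 had the largest SMX difference. It read 12.10, 11.26 and 11.89 with SMX alone, against 13.01, 12.65 and 12.82 in control. With sucrose it read 13.37, 13.30 and 13.59 with SMX, against 13.07, 13.38 and 13.47 without. The SMX arrays were the 3 lowest of the 12. The change was −1.08 (SE 0.213, unadjusted p = 0.00076, adjusted p = 0.287) without sucrose and 0.12 (SE 0.213, adjusted p = 1) with it. Their difference, the interaction, was 1.20 (SE 0.301, adjusted p = 0.393), so by limma neither SMX step nor the interaction passed. The RPL7a gene AT2G47610 read 11.46, 11.35 and 11.53 with SMX alone, below the 12.18, 11.67 and 11.72 of control, a change of −0.41 (SE 0.15, adjusted p = 0.699). Its interaction was 0.56 (SE 0.212, adjusted p = 0.719). By size, the RPS2 gene AT3G57490 (−0.48, SE 0.425, adjusted p = 0.818) and the P0 gene AT2G40010 (−0.34, SE 0.313, adjusted p = 0.823) had larger changes than the RPL7 gene AT2G44120 for SMX alone, with groups that overlapped. The RPL7 gene AT2G44120 had the third lowest p, at −0.25 (SE 0.11, adjusted p = 0.755) for SMX alone and 0.33 (SE 0.155, adjusted p = 0.865) for the interaction.

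With sucrose present, the smallest p values for SMX were those of the RPS4 gene AT5G58420 (0.26, SE 0.158, adjusted p = 1), the RPL9 gene AT4G10450 (−0.19, SE 0.145, adjusted p = 1) and the P0 gene AT3G09200 (0.29, SE 0.241, adjusted p = 1). Groups of 3 arrays against 3 cannot give an exact permutation p below 0.1. No paralog pair differed in its SMX response (exact permutation test, lowest adjusted p over the pairs 0.788, and 0 pairs at an unadjusted p under 0.05). The 3 pairs of lowest p were AT2G01250 and AT2G44120 (RPL7, difference 0.16, exact permutation p = 0.05), AT2G19730 and AT4G29410 (RPL28, difference 0.18, exact permutation p = 0.17), and AT2G41840 and AT3G57490 (RPS2, difference −0.37, exact permutation p = 0.19). Given together and set against control, sucrose plus SMX raised 8 members and lowered 1, beside 13.5% and 13.7% of all probe sets. The shares among probe sets with a mean above 6 are not given here for this comparison.

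**Figure D5:**
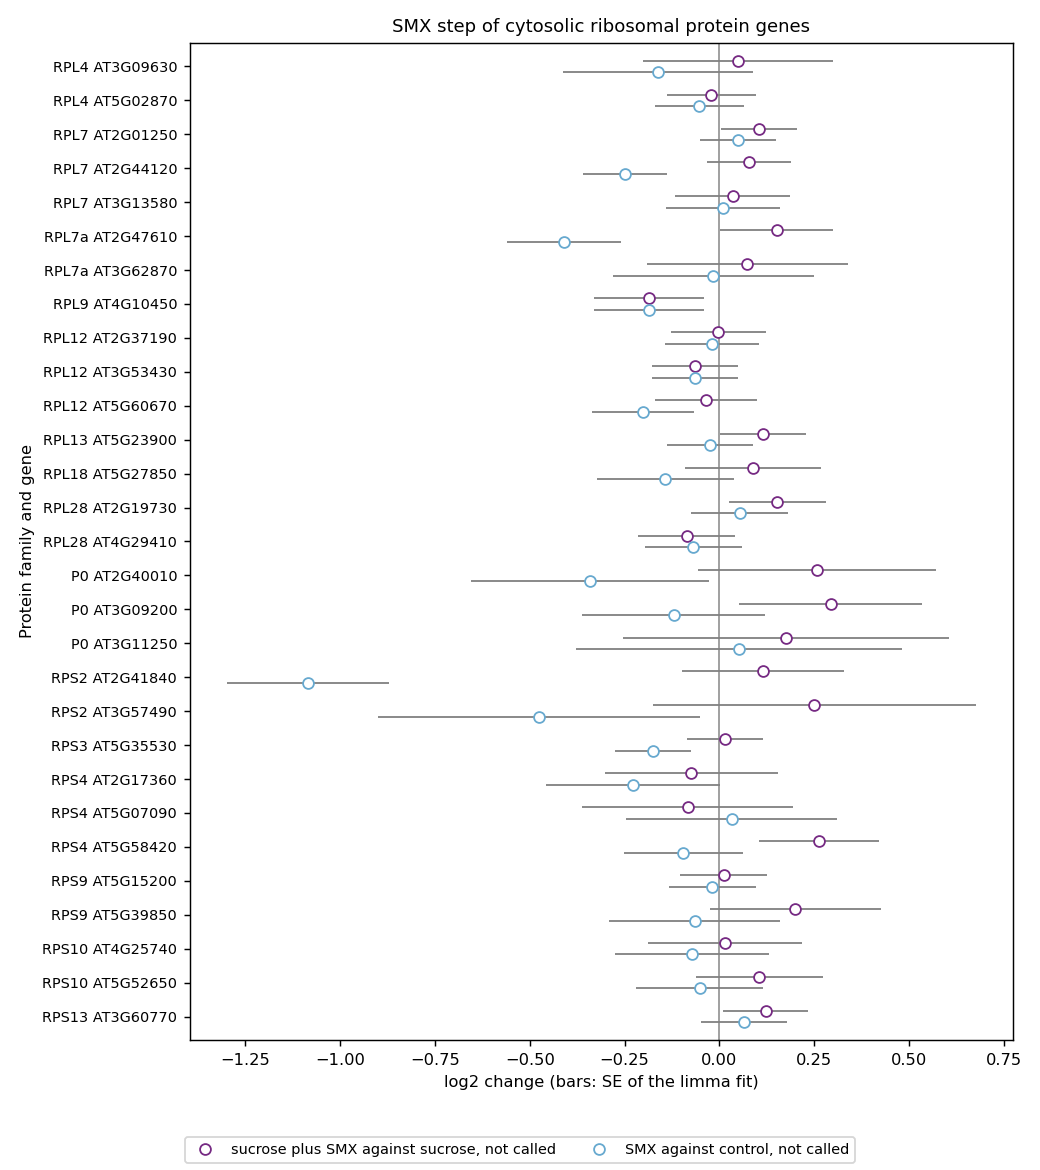
Log2 change with SMX for 29 of the 31 probe sets above the floor, with sucrose plus SMX against sucrose (upper of each pair) and SMX against control (lower). Bars are SEs of the limma fit and no point passed the test; the RPS2 gene AT2G41840 lies farthest to the left, at −1.08 without sucrose.

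Genes that build or serve the ribosome were followed from lists of known factors, chosen with earlier results of these data known. Their counts stand beside the shares over all probe sets, 11.9% up and 11.6% down for sucrose alone (22.8% each way above a mean of 6) and 16.2% each way for sucrose with SMX present. Of 26 ribosome assembly genes, 10 had a probe set of their own. With sucrose alone 5 were called up and 0 down (median 0.57), as with sucrose plus SMX against SMX alone (median 0.65). NRPA1, the largest subunit of the RNA polymerase that transcribes rRNA genes, read 7.02, 6.66 and 7.0 with sucrose, against 6.44, 5.38 and 5.32 in control, and rose by 1.18 (SE 0.27, adjusted p = 0.0151). PES (AT5G14520), the Pescadillo factor of 60S maturation, rose by 1.09 (SE 0.259, adjusted p = 0.0177) and AT5G15550, its partner of the WDR12 type, by 1.39 (SE 0.342, adjusted p = 0.0203). Control replicate 1 was the highest control array for NRPA1 and PES, as it was for the raised ribosomal protein genes. Of 29 translation factor genes 4 were matched and 2 rose: AT1G72730, of the eIF4A helicase family, by 2.51 (SE 0.37, adjusted p = 0.00258) and AT5G19510, of the elongation factor 1B family, by 0.79 (SE 0.206, adjusted p = 0.0254). EIF4A-2 changed by 0.31 (SE 0.126, adjusted p = 0.119).

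Of 8 genes of TOR signalling, the RAPTOR genes were matched, which encode the TOR complex subunit that binds its substrates, and both rose: RAPTOR1 by 1.76 (SE 0.339, adjusted p = 0.00745) and RAPTOR2 by 1.64 (SE 0.222, adjusted p = 0.00192). RAPTOR1 read 6.61, 7.21 and 7.31 with sucrose, against 6.09, 4.91 and 4.84 in control, where replicate 1 was again the highest. RAPTOR2 read 5.04, 4.68 and 4.88 with sucrose, against 3.24, 3.28 and 3.17 in control, close to the floor. With the spike score in the model the changes of RAPTOR1 and RAPTOR2 were 0.81 and 1.37, neither of them called. Ribosomal proteins of plastids and mitochondria were listed too, and their difference from the cytosolic ones was not tested. Of 33 listed for the plastid 9 were matched. With sucrose alone 0 were called up and 4 down (median −0.41), as with sucrose plus SMX against SMX alone (median −0.44). AT5G24490 changed by −1.16 (SE 0.177, adjusted p = 0.00295), AT4G17560 by −1.12 (SE 0.172, adjusted p = 0.00308) and AT3G13120 by −0.64 (SE 0.136, adjusted p = 0.0115). Of 11 mitochondrial ones 8 were matched, with 0 called for sucrose alone (lowest adjusted p 0.0892, for AT2G20060) and 2 up with SMX present. None of the context genes was called for SMX at either sucrose level, and none for sucrose alone once the spike score was in the model.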

How the data were processed

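Biotin-labelled RNA was measured on Affymetrix arrays, 1 per sample. The authors deposited 1 log2 value for each probe set and array; GCRMA and limma are named in the submitters' processing notes, with no version or order of steps, and the log2 scale was read from the range (2.12 to 15.7). Background subtraction in GCRMA and a common floor compress changes of dim probe sets. No array pair was identical and no probe set carries a molecule count, so the 3 arrays per group limit precision. The 64 control probe sets were left out.

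Genes were named from the platform annotation through TAIR10.1 gene IDs. The 4 groups follow the sample titles. All 12 arrays entered 1 fit in limma 3.58.1 (R 4.3.3; lmFit, eBayes, two-sided, Benjamini-Hochberg over 22746 probe sets). Paralog differences were tested by exact permutation (numpy 2.4.6). The fit was tested on simulated data. The members and lists were chosen with earlier results of these data known. Named by rule were the 8 largest rises and 4 largest falls called, the 3 lowest p values for SMX, the 6 widest and 3 narrowest paralog gaps, P0 and RPL4, and 3 genes per context list; other members are accounted for by their changes. Alternatives were a replicate block, quantile normalization, median centring, mean filters, 1-gene probe sets, the compared groups alone, the 2 labelling scores and each array left out. Sequences of the genes and probes were not used here. Counts cover all measured members, and single values of 1 family are not reported here.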

Additional observations from a re-analysis of the deposited data

How the results depend on the processing

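No result turned its direction while called, under any of these alternatives. Quantile normalization moved the members' median change to 0.057 for sucrose alone, to 0.14 for sucrose plus SMX against SMX alone and to 0.096 against control, against 0.17, 0.28 and 0.22 on the values as deposited; median centring gave 0.056, 0.23 and 0.15. With the spike score as a covariate, and likewise with the actin score, the number of members called was 0 for each of the 3 comparisons with sucrose on 1 side only, and limma with the spike score called 0 paralog pairs. Fitting only the groups compared called 0 members for sucrose alone against control and 4 for sucrose plus SMX against control. Such a fit has fewer degrees of freedom, and their part in the lost calls was not tested. For sucrose plus SMX against SMX alone, it made the P0 gene AT3G11250 a call (limma, adjusted p = 0.0358). Leaving out 1 array gave 4 to 11 members called for sucrose alone, 10 to 16 for sucrose plus SMX against SMX alone, 6 to 12 for sucrose plus SMX against control, 12 to 15 paralog pairs, and 0 for each SMX comparison, the interaction and the SMX pairs. The median changes then ran from 0.13 to 0.20 (sucrose alone), 0.26 to 0.35 (with SMX), 0.17 to 0.27 (both against control), −0.15 to −0.011 (SMX alone), 0.012 to 0.14 (SMX with sucrose) and 0.059 to 0.22 (interaction). With the replicate number as a block, 7, 12 and 8 members were called in the 3 sucrose comparisons and 13 paralog pairs in limma. Same-numbered arrays deviated together (correlation above 0.1) in 6 of 18 pairs. The correlations ran from −0.36 (sucrose and control, replicate 1) to 0.22 (sucrose plus SMX and sucrose, replicate 1). Of the 12 arrays, 8 correlated best with an array of their own number, a hint from the data and not the design. The cause of these shifts was not tested, and the shares of all probe sets called in these refits are not given here. Signal limits 1 member, which lay at the floor on every array.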

Other observations

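Beyond the 32 genes, 3 probe sets are paired with several genes that include 4 listed ribosomal protein loci. The probe set shared by the RPS3 genes AT2G31610 and AT3G53870 read 12.56, 12.82 and 13.18 with sucrose, against 12.41, 12.10 and 12.10 in control. With SMX it read 12.77, 12.79 and 13.09 with sucrose, against 12.20, 11.73 and 12.32 without. It rose by 0.65 (SE 0.2, adjusted p = 0.0468) and 0.80 (SE 0.2, adjusted p = 0.0152) in limma with Benjamini-Hochberg adjustment, where the single RPS3 gene AT5G35530 was called in neither comparison. With the spike score in the model, the changes of the shared probe set were 0.097 and 0.15, not called. The probe set that holds the RPL9 gene AT1G33120 and 1 other gene rose with SMX present, by 0.54 (SE 0.144, adjusted p = 0.0198), and changed by 0.23 (SE 0.144, adjusted p = 0.311) without it. The probe set of 4 genes that include the RPS2 gene AT1G58380 changed by 0.34 (SE 0.12, adjusted p = 0.0779) and 0.12 (SE 0.12, adjusted p = 0.502), called in neither. None of the 3 was called for SMX at either sucrose level. Which of the genes sharing a probe set carry these changes cannot be told apart.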
